A study of Mus musculus with 10 samples.

Results

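The genes described here are the enzymes, transporters and regulators of glycolysis and the genes that cells induce when oxygen is short, measured in mouse femur after 24 h without weight bearing. A total of 40 genes were listed by name, and a gene probe was found for 39 of them through its gene name or accession, among 18955 genes with a symbol and a tested probe on the array. No gene probe was named for Gapdh, which is not analysed here. The 39 genes had 68 probes, all of which passed the filter on dim signal, and where a gene had several, its brightest probe on average stood for it. The animals were male ICR mice aged 6 months, housed singly on a reversed light cycle. In 5 of them the hindlimbs were unloaded by hanging the tail for 24 h with the body tilted head down, and 5 controls walked freely. RNA of the femur of each mouse, labelled with Cy3, was hybridised to 1 Agilent one-colour array per animal. The whole bone was used, so the RNA comes from bone cells, marrow and whatever soft tissue stayed attached, and in such a sample fewer cells of a type and less RNA per cell cannot be told apart. All 10 bone markers looked for, from Bglap to Sost, were well above background on all 10 arrays. So were the probed markers of every other cell type looked for, among them T cell and neuron markers. Detection alone therefore does not set bone apart.

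Glycolysis turns glucose into pyruvate in the cytosol. Glucose enters through transporters of the Slc2a family, is trapped by hexokinases, split into triose phosphates and oxidised, and the pyruvate is either passed to mitochondria or reduced to lactate and exported. Osteoblasts are known to rely heavily on this route, and bone marrow is a tissue of low oxygen tension. When oxygen is short, the prolyl hydroxylases Egln1 and Egln3 no longer mark the alpha subunit of hypoxia-inducible factor (HIF, encoded by Hif1a and Epas1) for destruction by the Vhl ligase, the subunit pairs with Arnt, and the dimer binds a short motif near its targets. Those targets include most glycolytic enzymes as well as genes for blood vessel growth, acid handling and mitophagy.

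The HIF core motif is ACGTG or GCGTG on either strand, so that CACGT and CACGC also count, and it overlaps the E-box CACGTG, which other factors bind. It was looked for in the 250 bases before the first listed transcription start in RefSeq's promoter table (GRCm38.p6), in which 37 of the 40 genes had an entry, all but Slc2a3, Epas1 and Ndrg1. Of these 37 promoters, 27 held the motif (73.0%), against 10431 of the 27025 promoters of all genes (38.6%). The members' promoters were also richer in G and C, with a median of 59.2% against 52.0% over all genes. The glycolytic enzymes had the motif in 12 of 19 promoters and the other hypoxia targets in 6 of 7. The E-box was in 5 of the 37 promoters (13.5%), against 6.05% of all. The promoters of 6 genes described below are shown because they range from several matches to none. Each sequence runs 5′ to 3′ on the gene's own strand, and capitals mark the matches.
Slc2a1, chr4:119108495-119108744, plus strand: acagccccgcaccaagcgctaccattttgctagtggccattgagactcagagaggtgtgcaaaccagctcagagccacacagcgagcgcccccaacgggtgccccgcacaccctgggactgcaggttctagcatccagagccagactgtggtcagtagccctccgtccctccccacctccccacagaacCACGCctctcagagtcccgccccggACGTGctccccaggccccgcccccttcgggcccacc
Pgk1, chrX:106186850-106187099, plus strand: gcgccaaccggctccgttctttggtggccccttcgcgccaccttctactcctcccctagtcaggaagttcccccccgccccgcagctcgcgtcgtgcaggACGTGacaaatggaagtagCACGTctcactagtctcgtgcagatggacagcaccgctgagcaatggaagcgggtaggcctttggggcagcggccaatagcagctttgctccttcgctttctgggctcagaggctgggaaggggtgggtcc
Pgam2, chr11:5803797-5804046, minus strand: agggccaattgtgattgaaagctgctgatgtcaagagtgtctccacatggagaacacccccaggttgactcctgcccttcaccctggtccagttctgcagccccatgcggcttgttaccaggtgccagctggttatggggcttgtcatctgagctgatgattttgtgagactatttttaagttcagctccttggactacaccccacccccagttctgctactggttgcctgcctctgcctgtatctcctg
Ldha, chr7:46845554-46845803, plus strand: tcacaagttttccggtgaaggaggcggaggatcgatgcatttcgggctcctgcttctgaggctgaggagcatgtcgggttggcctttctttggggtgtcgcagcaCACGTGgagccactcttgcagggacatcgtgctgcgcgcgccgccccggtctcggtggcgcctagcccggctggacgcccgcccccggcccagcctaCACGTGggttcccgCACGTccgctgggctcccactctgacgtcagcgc
Hif1a, chr12:73907617-73907866, plus strand: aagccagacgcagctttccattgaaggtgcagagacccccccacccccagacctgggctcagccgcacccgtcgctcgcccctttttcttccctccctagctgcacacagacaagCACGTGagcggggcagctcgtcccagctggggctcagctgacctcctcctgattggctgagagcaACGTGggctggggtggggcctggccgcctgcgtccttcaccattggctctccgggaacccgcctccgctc
Bnip3, chr7:138909507-138909756, minus strand: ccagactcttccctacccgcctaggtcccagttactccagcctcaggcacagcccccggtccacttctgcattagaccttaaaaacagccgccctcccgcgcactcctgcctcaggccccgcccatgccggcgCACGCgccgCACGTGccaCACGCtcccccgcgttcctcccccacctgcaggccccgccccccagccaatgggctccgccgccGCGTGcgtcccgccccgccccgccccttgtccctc

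The match nearest to the start lay 34 bases before it in Ldha, 35 in Bnip3, 36 in Slc2a1, 70 in Hif1a and 131 in Pgk1, counted from the first letter of the match, and Pgam2 had none in this window. These are matches of letters, not measured binding. Among the 36 genes with both a promoter entry and a measured difference, those with the motif had 12 positive and 14 negative differences (median log2 fold change −0.01), and the 10 without it had 5 of each (median 0.0023). The split rests on the first listed start: 11 genes had several, and 5 of the 10 counted as without the motif (Hk1, Aldoa, Pkm2, Pfkfb1 and Vegfa) held it before another start.

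Each log2 signal is relative to the array's own 75th percentile, which puts all arrays on one scale. Per array, 89.8% to 95.5% of the gene spots were well above background. Unloaded animal 5 had the lowest share and also the lowest median correlation with the other arrays (0.974, against 0.987 to 0.989 for the other 9). It was the lowest or the highest unloaded array for 29 of 38 members measured on all arrays, which is 76.3%, against 63.7% of all genes. By the barcodes recorded with them, the arrays lay on 3 slides. Slide 1 held controls 1 to 4, slide 2 held unloaded animals 1 to 3 with control 5, and slide 3 held unloaded animals 4 and 5, so slide largely follows group and only slide 2 allows a comparison within a slide. Differences are unloaded minus control throughout.

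After 24 h of unloading no glycolytic or hypoxia-inducible gene of the list passed the test. With limma, a linear model fitted to all 38629 tested probes, 0 of the 39 genes had an adjusted p below 0.05, beside 0.00528% of all genes, and the smallest adjusted p among them was 0.252. At an unadjusted p below 0.05 there were 2 of 39, Slc2a1 (positive difference) and Hif1a (negative difference). The same limit was passed by 15.8% of all genes, made up of 9.9% of all genes higher and 5.87% lower in unloaded femur. The share of the list lay below that background, and no member had groups that did not overlap, beside 1.5% of all genes apart in the positive and 1.8% in the negative direction. Of the 39 genes, 18 had a positive and 21 a negative difference with a median of −0.01, whereas 60.4% of all genes had a positive difference with a median of 0.05. These signs depend on how arrays are scaled: scaling by each array's median gave 6 positive and 33 negative members, and quantile normalization 17 and 22.

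The 95% intervals show how large a difference the spread among the 5 animals per group leaves room for. They come from the fit without slide and make no allowance for it, though slide largely follows group. For 37 of the 39 genes the whole interval, not adjusted for the number of genes, lay within 1.5-fold in either direction. By the probes standing for the genes, the exceptions were the muscle forms of phosphofructokinase and phosphoglycerate mutase, Pfkm and Pgam2, whose intervals reached down to −0.67 and −1.18 on the log2 scale. Other probes had intervals that went beyond 1.5-fold for 4 further genes, Eno2, Slc16a1, Arnt and Vegfa, which leaves 33 genes with every probe within it. The plot of differences by role shows all 39 intervals.

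**Figure D1:**
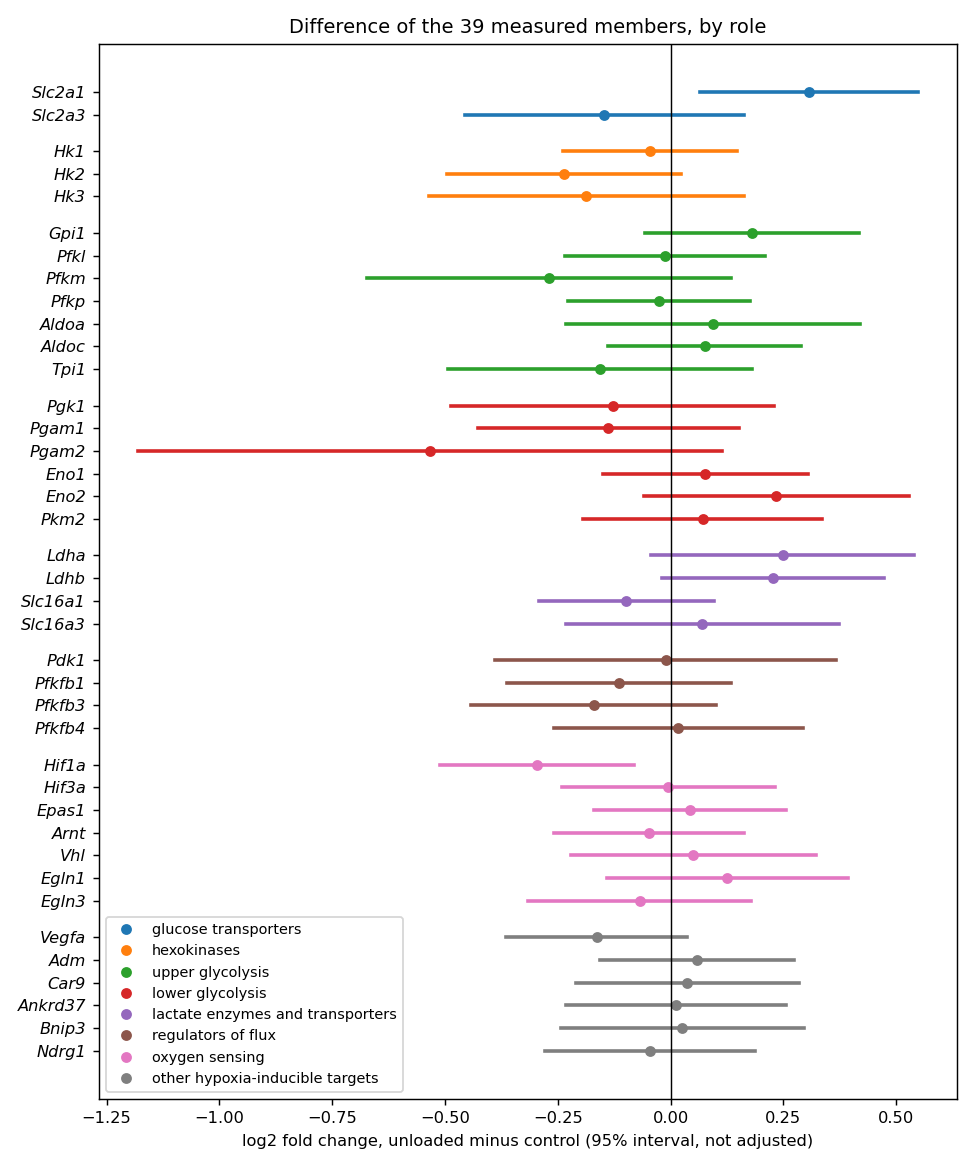
Log2 fold change (unloaded minus control, x axis) of the 39 measured genes with its 95% interval, not adjusted, from limma on 5 unloaded and 5 control arrays. Rows are genes grouped and coloured by role. Only the intervals of Slc2a1 and Hif1a leave out 0, and that of Pgam2 is the widest.

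Set against each other, the glycolytic enzymes and the other hypoxia targets showed little difference between unloaded and control femur. The 18 measured glycolytic enzymes (hexokinases to lactate dehydrogenases) had 8 positive and 10 negative differences, with a median log2 fold change of −0.02 and a range of −0.53 to 0.25. The 8 other hypoxia targets (Vegfa, Adm, Car9, Ankrd37, Bnip3, Ndrg1, Egln1 and Egln3) had 5 positive and 3 negative differences, with a median of 0.02 and a range of −0.16 to 0.13. With median scaling the medians were −0.11 for the glycolytic enzymes and −0.08 for the other targets. Averaged over the 17 glycolytic enzymes measured on all arrays, the log2 signal was 2.30 ± 0.09 in unloaded and 2.34 ± 0.14 in control femur (SD, n = 5 each). For the 8 other targets it was −0.29 ± 0.03 in unloaded and −0.28 ± 0.08 in control femur (SD, n = 5 each). In both sets the groups' means differed by less than the spread between animals.

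Of the glucose transporters, Slc2a1, the widely expressed GLUT1 transporter and a HIF target, had the largest positive difference of the whole list by the probes standing for the genes. Its log2 signal was 1.22, 1.17, 1.10, 0.95 and 1.43 in unloaded animals 1 to 5, against 0.63, 1.01, 0.78, 1.01 and 0.91 in controls 1 to 5. Unloaded animal 4 lay below controls 2 and 4, and the other 4 unloaded animals lay above every control. The log2 fold change was 0.31 (SE 0.11, limma adjusted p = 0.258). Within slide 2, where its 3 unloaded animals are set against 1 control, the difference was 0.26. Slc2a3, the GLUT3 transporter, had −0.15 (SE 0.14).

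**Figure D2:**
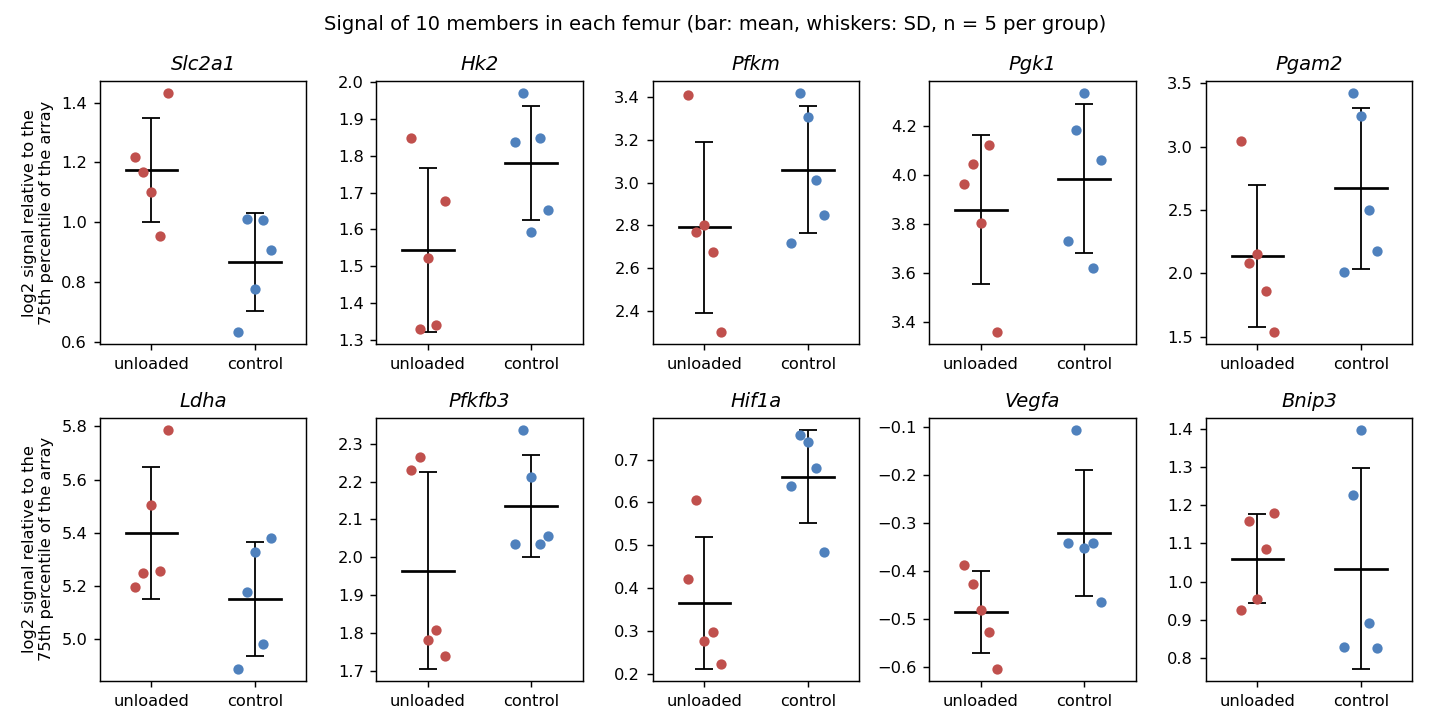
Log2 signal relative to the array's 75th percentile (y axis, a separate scale for each panel) of 10 members in each unloaded (left) and control (right) femur. Points are animals, the horizontal bar is the group's mean and the whiskers are its SD (n = 5 each). The groups overlap in every panel.

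All 3 hexokinases, which phosphorylate glucose on entry, had negative differences under each of the 3 scalings, from −0.24 to −0.05 at the 75th percentile scaling. Hk2, the insulin- and hypoxia-responsive form of muscle and fat, had a log2 signal of 1.85, 1.33, 1.52, 1.34 and 1.68 in unloaded animals 1 to 5, against 1.84, 1.97, 1.59, 1.85 and 1.65 in controls 1 to 5. Unloaded animals 2, 3 and 4 lay below every control, and animals 1 and 5 lay among the controls. Between the group means the difference was −0.24 (SE 0.12, limma adjusted p = 0.335), and within slide 2 it was −0.09. Hk3, the form of white blood cells, had −0.19 (SE 0.16). Hk1, found in most tissues, had −0.05 (SE 0.09) by its brightest probe, whereas its other 5 probes had positive differences of up to 0.16.

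In the upper part of glycolysis, which ends at the triose phosphates, 3 of 7 genes had a positive difference. Pfkm, the muscle form of phosphofructokinase, had the difference of largest size. Its log2 signal was 3.41, 2.77, 2.80, 2.67 and 2.30 in unloaded animals 1 to 5, against 2.72, 3.42, 3.31, 3.01 and 2.85 in controls 1 to 5. Unloaded animal 1 lay next to control 2, and control 1 lay among the unloaded animals. The log2 fold change was −0.27 (SE 0.19, limma adjusted p = 0.448), but within slide 2 it was 0.14. It was −0.42 without unloaded animal 1 and −0.15 without unloaded animal 5. The liver form Pfkl and the platelet form Pfkp had −0.01 and −0.03. Gpi1, the isomerase of glucose 6-phosphate, had 0.18 (SE 0.11), the 2 aldolases Aldoa and Aldoc had 0.09 and 0.08, and Tpi1, the triose phosphate isomerase, had −0.16 (SE 0.16). The spots of Aldoa's probe were marked as outliers in unloaded animal 4 and control 4, so its value rests on 4 animals per group. A second Aldoa probe, measured on all arrays, gave −0.02.

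The lower part, which yields ATP and pyruvate, was represented by 6 genes, with 3 positive and 3 negative differences. Pgk1 makes the first ATP of the pathway and is a long-known HIF target. Its log2 signal was 3.97, 4.05, 3.80, 4.12 and 3.36 in unloaded animals 1 to 5, against 3.73, 4.18, 4.34, 3.62 and 4.06 in controls 1 to 5. Unloaded animal 5 was the lowest of the 10, and the groups otherwise covered much of the same range. Over all animals the difference was −0.13 on the log2 scale (SE 0.17, limma adjusted p = 0.687), and without unloaded animal 5 it was −0.0025. A second Pgk1 probe gave −0.14. Pgam1, the widely expressed mutase, had −0.14, the enolases Eno1 and Eno2 had 0.08 and 0.23, and Pkm2, the pyruvate kinase gene now named Pkm, had 0.07.

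Pgam2, the muscle form of phosphoglycerate mutase, had the largest difference of the list and also the widest spread between animals. Its log2 signal was 3.05, 2.08, 2.15, 1.86 and 1.54 in unloaded animals 1 to 5, against 2.01, 3.42, 3.24, 2.50 and 2.17 in controls 1 to 5. Unloaded animal 1 stood far above the other 4 unloaded animals, and controls 2 and 3 above the other 3 controls. The log2 fold change was −0.53 (SE 0.30, limma adjusted p = 0.369), and within slide 2 it was 0.25. Without control 2 it was −0.35. The SD of Pgam2 within groups, 0.60, exceeded that of 99.5% of genes, and that of Pfkm, 0.352, exceeded 94.6%. Over all 39 genes the median SD was 0.179, close to the 0.186 of all genes.

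The levels of both muscle forms went up and down with markers of skeletal muscle, a tissue that surrounds the femur. The mean log2 signal of 12 of 12 muscle markers, among them Acta1, Ckm and Myh4, was 4.38, 3.51, 3.73, 3.45 and 3.28 in unloaded animals 1 to 5, against 3.07, 4.41, 4.38, 3.87 and 3.54 in controls 1 to 5. Unloaded animal 1 and controls 2 and 3 were the highest in this list as they were for Pgam2 and Pfkm. The Aldoa probe measured on all arrays was also highest in these animals, at 7.31, 7.30 and 7.26. On the linear scale, relative to the 75th percentile, the summed level of the 12 markers ranged from 230.2 to 445.7 in unloaded and from 181.9 to 436.3 in control femur, and none of them was at background. The markers' mean differed by −0.18 between the groups, and 11 of the 12 had a negative difference. The part of muscle RNA in the differences of Pgam2 and Pfkm was not tested.

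**Figure D3:**
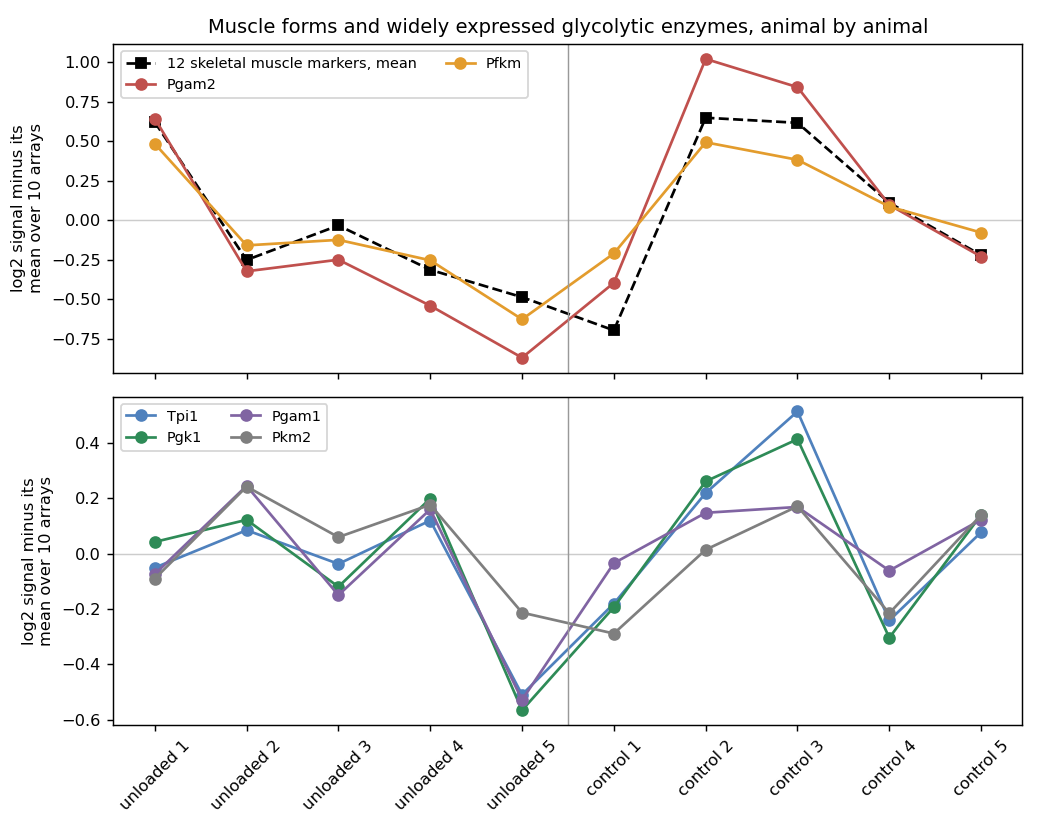
Log2 signal of each gene minus its own mean over the 10 arrays (y axis), by animal, unloaded animals 1 to 5 left of the grey line and controls 1 to 5 right of it. The upper panel shows Pgam2, Pfkm and the mean of 12 skeletal muscle markers, all high in unloaded 1 and in controls 2 and 3; the lower panel shows Tpi1, Pgk1, Pgam1 and Pkm2, lowest in unloaded 5 except for Pkm2, which was lowest in control 1.

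The widely expressed enzymes Tpi1 and Pgk1, picked for this description after their values were seen, followed another order of animals. Tpi1 had a log2 signal between 3.47 and 4.10 in unloaded animals, against 3.74 to 4.49 in controls. As for Pgk1, unloaded animal 5 was the lowest and control 3 the highest, and control 4 was the lowest control. Unloaded animal 1, high for the muscle forms, was in the middle here. Pgam1 was also lowest in unloaded animal 5, but Pgam1 and Pkm2 were highest in unloaded animal 2.

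The 4 genes of lactate handling had a median difference of 0.15 over all arrays and of −0.08 within slide 2. Ldha, the lactate dehydrogenase subunit that favours lactate production and a HIF target, had a log2 signal of 5.20, 5.25, 5.50, 5.26 and 5.79 in unloaded animals 1 to 5, against 4.89, 5.18, 5.33, 4.98 and 5.38 in controls 1 to 5. Unloaded animals 3 and 5 lay above every control, and control 5 lay above the other 3 unloaded animals. This gave a log2 fold change of 0.25 (SE 0.14, limma adjusted p = 0.359). Without unloaded animal 5 it was 0.15, within slide 2 it was −0.06, and a second Ldha probe gave 0.04 over all arrays. Ldhb, the subunit that favours pyruvate, had 0.23 (SE 0.11, limma adjusted p = 0.334), with 0.10 within slide 2. The lactate transporters Slc16a1 and Slc16a3 (MCT1 and MCT4) had −0.10 and 0.07, and −0.17 and −0.10 within slide 2. Other probes of Slc16a1 gave −0.15 and 0.34 over all arrays.

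The regulators of flux set how fast glucose carbon moves and where it goes. Pfkfb3, whose product makes the activator of phosphofructokinase, had a log2 signal of 2.23, 2.26, 1.78, 1.81 and 1.74 in unloaded animals 1 to 5, against 2.03, 2.34, 2.21, 2.03 and 2.06 in controls 1 to 5. Unloaded animals 3, 4 and 5 lay below every control and animals 1 and 2 among them. Its log2 fold change was −0.17 (SE 0.13, limma adjusted p = 0.473). Its 2 other probes gave −0.02 and 0.29, the last with an unadjusted p of 0.0105 and a limma adjusted p of 0.252. The related genes Pfkfb1 and Pfkfb4 had −0.11 and 0.02, and Pdk1, the kinase that keeps pyruvate out of mitochondria, had −0.01 with an SD of 0.326.

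Among the oxygen-sensing genes, Hif1a itself had the smallest p of the 39 probes that stand for a gene. Its log2 signal was 0.42, 0.61, 0.28, 0.30 and 0.22 in unloaded animals 1 to 5, against 0.64, 0.76, 0.74, 0.68 and 0.48 in controls 1 to 5. Controls 1 to 4, all on slide 1, lay above every unloaded animal, whereas control 5, on slide 2 with unloaded animals 1 to 3, lay below unloaded animal 2. Over all arrays the log2 fold change was −0.30 (SE 0.10, limma adjusted p = 0.252), and within slide 2 the difference was −0.05. The mRNA level says nothing of the amount of HIF protein, which is set mainly by its destruction. The probes standing for the other genes of the sensing pathway gave smaller differences over all arrays, though not within slide 2, where they ranged from −0.22 to 0.16. The second alpha subunit Epas1 had 0.04, the inhibitory Hif3a −0.0047, the ligase subunit Vhl 0.05, and the prolyl hydroxylases Egln1 and Egln3 had 0.13 and −0.07.

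Arnt, the common partner of the alpha subunits, was the gene on which its probes differed most. The brightest of its 4 probes gave −0.05 (SE 0.10). The others gave −0.09, 0.33 (SE 0.12, limma adjusted p = 0.261) and −0.42 (SE 0.11, limma adjusted p = 0.218). Of the 18 genes with more than 1 probe, 8 had the same sign of difference on all their probes. Which probe matches which transcript form is not known from the files.

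**Figure D4:**
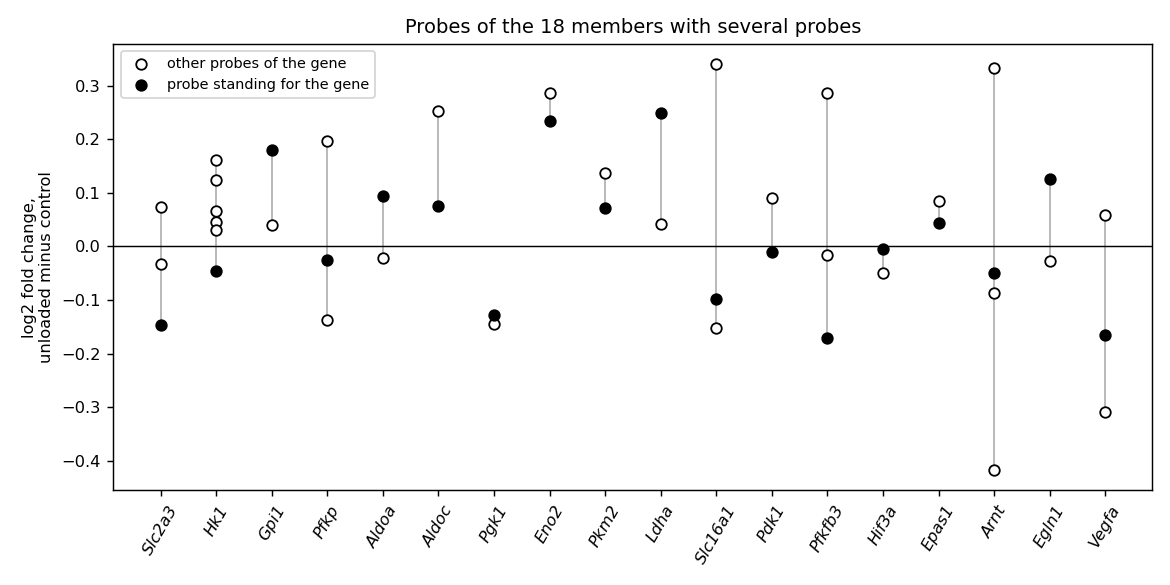
Log2 fold change (unloaded minus control, y axis) of every tested probe of the 18 members with several probes (x axis), from limma on 5 unloaded and 5 control arrays. Filled points are the probes that stand for their gene and open points the others, and Arnt spans the widest range, −0.42 to 0.33.

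The remaining hypoxia targets act outside glycolysis. Vegfa, the main growth factor of blood vessels, had a log2 signal of −0.39, −0.43, −0.48, −0.53 and −0.60 in unloaded animals 1 to 5, against −0.34, −0.11, −0.35, −0.34 and −0.46 in controls 1 to 5. Controls 1 to 4 again lay above every unloaded animal, and control 5 lay among them. The log2 fold change was −0.16 (SE 0.09, limma adjusted p = 0.372), and 0.03 within slide 2. Its other probes gave −0.31 and 0.06.

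Bnip3, a HIF target that starts the removal of mitochondria, had a log2 signal of 0.93, 1.16, 0.95, 1.09 and 1.18 in unloaded animals 1 to 5, against 0.83, 1.23, 1.40, 0.89 and 0.83 in controls 1 to 5. The unloaded animals lay between the lower 3 and the upper 2 controls. The log2 fold change was 0.03 (SE 0.13, limma adjusted p = 0.922). Adm, which encodes the vessel-dilating peptide adrenomedullin, had 0.06, the carbonic anhydrase gene Car9 had 0.04, and Ankrd37 and Ndrg1, both induced by hypoxia, had 0.01 and −0.05.

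Slide 2 allows the difference to be taken within a slide for each gene. There, 23 of the 39 genes kept the sign they had over all arrays and 16 turned (41.0%), beside 35.4% of all genes. Control 5, the single control on that slide, lay outside the range of the 4 controls on slide 1 for 14 genes (35.9%, beside 44.9% of all genes), above it for 9 and below it for 5. It was above that range for Gpi1 at 6.28 and Ldha at 5.38, and below it for Hif1a and Vegfa. In a fit with slide as a random block, arrays of a slide correlated at −0.03 once group was in the model. At a correlation so near 0 this fit is almost the fit without slide. Its values therefore had to stay close to those over all arrays, with −0.30 for Hif1a and −0.55 for Pgam2, and cannot show whether slide matters. With slide as a fixed block they were −0.05 and 0.25. With 1 control on slide 2 the differences within it have no replicate check, and elsewhere slide and unloading cannot be told apart.

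**Figure D5:**
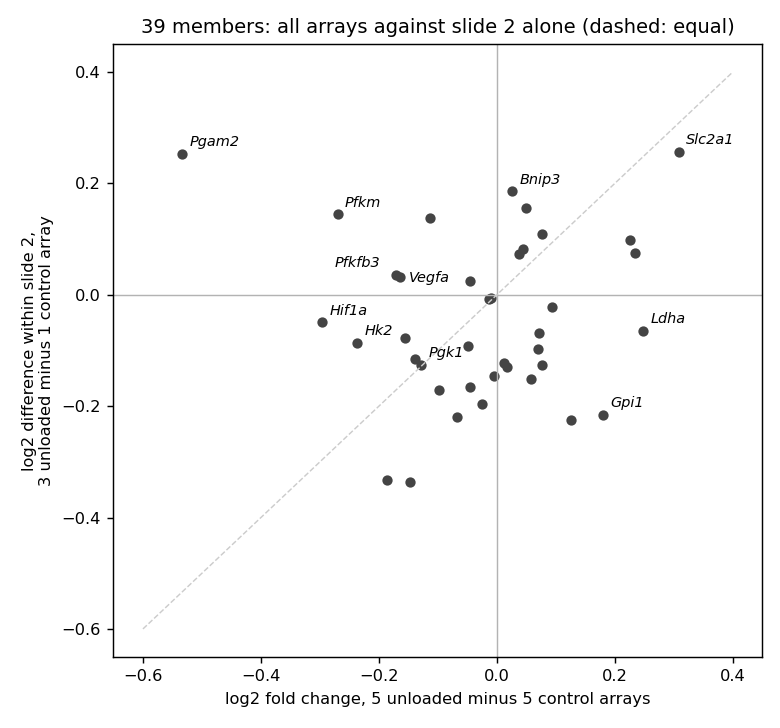
Log2 difference within slide 2 (3 unloaded minus 1 control array, y axis) against the log2 fold change over all arrays (5 unloaded minus 5 control, x axis) for the 39 measured genes. Points on the dashed line have equal values, and Slc2a1 lies near it. Of the labelled genes, Pgam2, Pfkm, Vegfa and Pfkfb3 turn from negative over all arrays to positive within the slide. Pfkfb1 and Ndrg1, not labelled, turn the same way.

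Other genes of both pathways, listed by what they do, gave a like picture with 1 exception. Of 24 further genes of glycolysis and its regulation, all tested, 0 passed limma's adjusted test, 2 had an unadjusted p below 0.05, both with a positive difference, and the median was 0.05. The smallest p belonged to Fbp1, an enzyme of gluconeogenesis, with a log2 fold change of 0.46 (SE 0.16, limma adjusted p = 0.253), followed by Tigar, which lowers fructose 2,6-bisphosphate, with 0.33 (SE 0.13), and Pdk2, a pyruvate dehydrogenase kinase, with 0.27 (SE 0.13). Of 26 further hypoxia-response genes, all tested, 1 passed, 4 had an unadjusted p below 0.05, 3 of them higher and 1 lower, and the median was −0.02. The gene that passed, and the 1 called among all 18955 genes, was Ddit4, an inhibitor of mTOR that hypoxia and glucocorticoids both induce, with a log2 fold change of 1.17 (SE 0.12, limma adjusted p = 0.00794). Its limma adjusted p was 0.267 with slide as a fixed block, 0.0511 with body weight as a covariate, 0.0527 without unloaded 4, 0.0529 without control 4, 0.0502 without control 5 and 0.125 without unloaded 5 and control 5 together, with log2 fold changes of 1.13 to 1.21. Arnt2, the neural relative of Arnt, had 0.44 (SE 0.12, limma adjusted p = 0.218) and Kdm3a, a HIF-induced histone demethylase, had −0.29 (SE 0.11, limma adjusted p = 0.262).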

How the data were processed

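Per the file headers, the authors' arrays (design 014868) were scanned into spot values by Agilent Feature Extraction, version 9.1.3.1, protocol GE1-v5_91_0806, and the deposited spot intensity is background-corrected and detrended within an array but not scaled between arrays. The deposited series matrix holds intensity too, equal to the processed signal within rounding (ratios 0.995 to 1.005), uncentred, on a linear scale, with column medians of 253 to 335. Of 45018 spots, 43379 held 41174 gene probes. Spots marked as outliers were left out, and spots of a probe were averaged as log2 values minus the array's 75th percentile. The 38629 probes tested were above background, by the scanner's own flag, in 4 or more of the 5 animals of either group, with 3 or more values in both groups. The test was limma's (lmFit and eBayes, version 3.58.1, R 4.3.3), two-sided and without covariates, with Benjamini-Hochberg adjustment over all tested probes and a threshold of 0.05. The number of arrays limits the precision. On simulated arrays of this size (38629 probes) the procedure recovered 90% of 100 probes changed by 1 log2 unit and 100% of 100 changed by 2. Recovery of changes smaller than 1 log2 unit was not tested. The differences of the 39 genes were all smaller than that, from −0.53 to 0.31, so these percentages do not apply to them.

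The members, lists and named genes were chosen with earlier results of these data known. Values per animal are given for members with an unadjusted p below 0.05, for the member with the largest difference of each role, and for Slc2a1, Hk2, Pgk1, Ldha, Hif1a, Vegfa and Bnip3 whatever their result; Gapdh was on that list without a probe. Of the 2 lists of pathway genes outside the members, the 3 with the smallest p were named. Probes were named through RefSeq's gene table (GRCm38.p6, names only). The R package data.table (1.17.8) read the files, and matplotlib (3.10.9) drew the figures. Alternatives covered background correction, scaling, filter, series matrix, slide, replicate number, body weight, variance model, probe and each array left out. The labels number animals in each group separately. Same-numbered arrays were checked for shared deviations: 1 of 5 pairs correlated above 0.1, so the numbers were not taken as pairs.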

Additional observations from a re-analysis of the deposited data

Results flagged for a closer look

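In each group of 5 animals the lowest and the highest value of every member were compared with the nearest of the others, by Dixon's criterion. Of 78 groups looked at, 4 held an animal far from the rest, and chance flags about 1 in 20 groups. The isomerase gene Gpi1 stood at a log2 signal of 6.28 in control 5, where the other controls lay between 5.81 and 5.91. The aldolase gene Aldoc, expressed mainly in brain, stood at −0.66 in control 1, where the other controls lay between −0.94 and −0.90. Tpi1 stood at 3.47 in unloaded animal 5, where the other unloaded animals lay between 3.93 and 4.10. Ldhb stood at 1.45 in control 4, where the other controls lay between 1.83 and 1.98.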

How the results depend on the processing

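Under every alternative run, including each array left out in turn, 0 members passed limma's adjusted test. The number of all probes called was 1, against 3 with slide as a fixed block or with a trended robust variance, and 0 with body weight as a covariate or without unloaded 5 and control 5 together, an alternative chosen after seeing the data. Without single arrays it lay between 0 and 2 (0 without unloaded 4, control 4 or control 5). Probes with an unadjusted p below 0.05 numbered 6225, against 3230 with normexp background correction, 1815 with slide as a fixed block, 3488 with body weight, 9592 without unloaded 2 and 4064 without control 3. At the 75th percentile scaling they split into 3939 higher and 2286 lower, but 1386 and 4474 with median scaling and 2095 and 2938 with quantile normalization. The replicate number as a block called 1 probe and 0 members, with 6429 probes at an unadjusted p below 0.05. Of the 5 unloaded arrays, 0 correlated best with the control of the same number. The median of the other hypoxia targets was −0.076 with median scaling. With slide as a fixed block, and equally within slide 2, the log2 fold change turned to 0.14 for Pfkm, 0.25 for Pgam2, −0.064 for Ldha, 0.036 for Pfkfb3 and 0.032 for Vegfa. That of Pgk1 turned to 0.027 with body weight and 0.017 without unloaded 5 and control 5. Bnip3 turned to −0.069 with median scaling and −0.055 without unloaded 5 and control 5, and lay between −0.026 and 0.12 without single arrays. Another probe gave 0.29 for Pfkfb3 and 0.058 for Vegfa. The cause of these turns was not tested. A further 216 differences of single genes kept their direction and their side of the threshold, and 81 counts and medians stayed within 1.5 times or within the spread between animals. For the medians that spread was an SD between arrays of 0.385 (glycolytic enzymes) and 0.076 (other hypoxia targets). The first was wider than every move of its median, whose lowest value was −0.114 with median scaling. That median could therefore not count as moved, and its staying within 0.385 says little. The mean log2 signal of the glycolytic enzymes had smaller SDs between animals, 0.087 in unloaded and 0.138 in control femur. Within the SDs of 0.385 and 0.076 the medians changed sign. That of the glycolytic enzymes was 0.043 with body weight and 0.053 without unloaded 5 and control 5. That of the other targets was −0.049 with slide as a fixed block.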
